A study of Saccharomyces cerevisiae with 6 samples.

Results

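The genes described here are the 43 protein-coding genes of Saccharomyces cerevisiae whose standard symbol is ARG, HIS, LYS, TRP, LEU or ILV followed by a digit, plus GCN4, out of 7064 genes in the deposited annotation. They comprise 36 enzymes of arginine, histidine, lysine, tryptophan, leucine, isoleucine and valine synthesis, the pathway regulators ARG80, ARG81, ARG82, LEU3 and LYS14, the mitochondrial carrier gene LEU5, and GCN4. Of the 43, 41 were counted at a locus of their own, and all 41 passed the filter on low counts. HIS3 was counted together with YOR203W and DED1, and HIS6 together with YIL020C-A, so these 2 genes were set apart from every count of changed genes and every summed level.

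RNA was sequenced from W303, a laboratory yeast strain, in 3 groups of 2 libraries each. The first group was pdr3Δ cells that overexpressed PSD1, the second was PSD1 overexpression with PDR3 present, and the third was wild-type W303 (WT). The PSD1 product is a mitochondrial enzyme that turns phosphatidylserine into phosphatidylethanolamine, here expressed from a GAL promoter. Pdr3 is a zinc-cluster activator of drug resistance genes. The medium was 1% yeast extract, 2% peptone and 2% raffinose, and induction was with 2% galactose for 4 h; the labels do not say whether WT received galactose, nor how many clones each group represents. Standard W303 stocks carry loss-of-function alleles of HIS3, LEU2 and TRP1, among other markers, and the labels do not state the marker genotype of these cells or of any plasmid.

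Yeast makes amino acids through pathways split between the cytosol and the mitochondrial matrix. When amino acids run short, the kinase Gcn2 slows general translation and raises translation of GCN4 mRNA through short upstream reading frames, and the Gcn4 protein then activates synthesis genes through TGACTCA elements. Several pathways have a further regulator of their own: the ArgR complex with Mcm1 for arginine, Leu3 for leucine and branched-chain genes, and Lys14 for lysine. RNA counts do not report the Gcn4 protein.

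The 6 libraries held 10220872 to 12315448 counts. PSD1 averaged 9219.6 CPM (counts scaled to library size) in pdr3Δ cells, 15476.2 CPM in PSD1 overexpression and 1406.7 CPM in WT. PDR3 averaged 0.516 CPM in pdr3Δ cells, 210.4 CPM in PSD1 overexpression and 62.9 to 65.1 CPM in the WT libraries. PSD1 was thus lower in pdr3Δ cells than in PSD1 overexpression, at a log2 fold change of -0.75 ± 0.09 (SE, adjusted p = 0.000668). GAL1, a galactose-induced gene, averaged 8210.7 CPM in pdr3Δ cells, 6203.5 CPM in PSD1 overexpression and 30.4 CPM in WT, so in the comparisons with WT the effects of galactose use and of PSD1 cannot be told apart. URA3, a common selection marker, averaged 5121.6 CPM in pdr3Δ cells, 12460.6 CPM in PSD1 overexpression and 16961.3 CPM in WT. Changes were tested with edgeR's quasi-likelihood test, and a gene was called at a Benjamini-Hochberg adjusted p under 0.05 over all 6171 tested loci. All adjusted p-values below are from this test, every error of a log2 fold change is its SE, and n = 2 libraries per group. In bulk RNA, fewer cells with a transcript and less of it per cell cannot be told apart.

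The upstream sequence of the 43 genes was searched from 350 to 51 bases before the start codon, a window of 300 bases, on both strands. The core of the Gcn4 element, TGACTC, lay in the window of 29 of the 43 genes (67.4%), against 484 of 6020 windows over all genes (8.04%). The longer element TGACTCA, which contains the core, lay in 21 of the 43 (48.8%), against 169 of 6020 (2.81%). The core lay in the windows of 6 of 7 histidine enzymes and 4 of 5 isoleucine and valine enzymes. It also lay in those of 3 of 4 leucine, 3 of 5 tryptophan and 3 of 8 lysine enzymes. All 7 arginine enzymes held the core, and 6 of them held the longer form. GCN4 itself held neither. One site per arginine enzyme is printed below, since these genes fell together; capitals mark the core, and coordinates and strand are those of RefSeq R64, the S288C genome, which can differ from W303.
ARG1, chrXV:218854-218883, + strand: gtgattttttagTGACTCatgtcgcatttg
ARG2, chrX:306030-306059, - strand: cgaacgtgcttaTGACTCcatgggaagatc
ARG3, chrX:268473-268502, + strand: agggtcacgtcgTGACTCatatgctttctt
ARG4, chrVIII:141564-141593, - strand: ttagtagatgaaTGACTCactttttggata
ARG5,6, chrV:295175-295204, + strand: ttcttatccgaaTGACTCagtctacatcaa
ARG7, chrXIII:396514-396543, - strand: ggacaggtaggaTGACTCactgcgtaattc
ARG8, chrXV:58567-58596, + strand: cagctcgctatgTGACTCacttaaagtaca

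The core also lies upstream of genes that moved the other way. The whole windows of ARG1 and HIS4 are printed because ARG1 fell and HIS4 rose in PSD1 overexpression against WT and each window holds more than 1 core; capitals mark TGACTC, or GAGTCA where it reads on the other strand. The ARG1 window is chrXV:218861-219160 on the + strand and the HIS4 window is chrIII:68384-68683 on the - strand.
ARG1: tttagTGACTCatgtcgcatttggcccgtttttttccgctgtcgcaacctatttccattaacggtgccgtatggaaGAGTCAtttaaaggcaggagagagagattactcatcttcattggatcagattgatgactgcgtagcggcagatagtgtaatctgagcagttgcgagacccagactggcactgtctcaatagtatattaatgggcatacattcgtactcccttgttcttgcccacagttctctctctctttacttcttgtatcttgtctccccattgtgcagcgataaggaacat
HIS4: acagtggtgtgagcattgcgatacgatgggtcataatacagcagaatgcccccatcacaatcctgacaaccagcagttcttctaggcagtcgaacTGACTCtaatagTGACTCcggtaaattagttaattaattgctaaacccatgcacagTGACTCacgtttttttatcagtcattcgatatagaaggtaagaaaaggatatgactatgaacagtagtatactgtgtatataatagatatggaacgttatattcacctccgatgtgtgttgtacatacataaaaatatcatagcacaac
Among the genes with their own locus, the core was present in 17 of the 23 that fell in PSD1 overexpression against WT, in 3 of the 7 that rose and in 7 of the 11 that were not called. A match to these letters is a description of the window and not evidence of binding.

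In PSD1 overexpression against WT, 23 of the 41 genes fell and 7 rose (56.1% and 17.1% of them, 73.2% in all). Of all tested loci 55.8% were called, 27.9% lower and 27.9% higher. The median log2 fold change was -0.21 over the 41 genes and 0.01 over all loci. At a call of at least 1.5-fold, 7 of the 41 were lower and 2 higher (17.1% and 4.88%), against 6.77% and 8.62% of all loci (15.4% in either direction). The 2 libraries of PSD1 overexpression lay wholly below those of WT for 27 of the 41 genes and wholly above for 9, against 38.4% and 39.5% of all loci. The summed level of the 41 genes was 11916.5 and 11815.8 CPM in PSD1 overexpression, against 14524.1 and 15218.7 CPM in WT. All 7 arginine enzymes and 4 of the 5 isoleucine and valine enzymes fell, and the called lysine and histidine enzymes were split in direction.

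**Figure D1:**
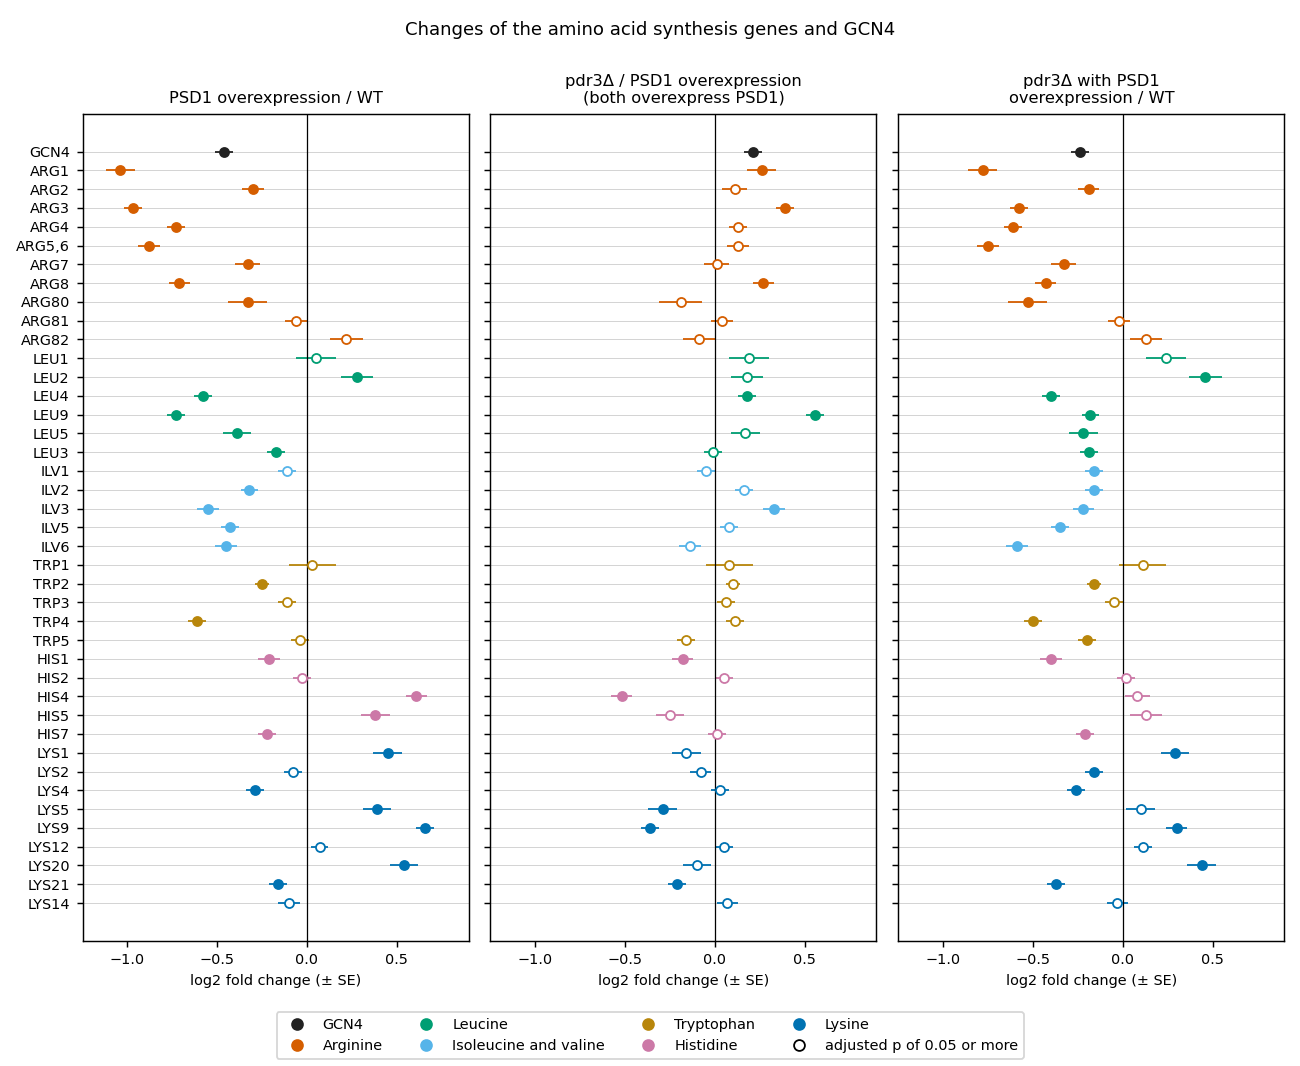
Log2 fold change with SE (horizontal axis) of GCN4 and the 40 other genes with their own locus (vertical axis, coloured by pathway) in the 3 comparisons; filled points have an adjusted p under 0.05. In PSD1 overexpression against WT the arginine enzymes run from -1.04 to -0.30 and the lysine enzymes from -0.29 to 0.66.

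GCN4, the transcriptional activator of the general control, had 1811.4 and 1745.2 CPM in pdr3Δ cells and 1579.4 and 1489.7 CPM in PSD1 overexpression, against 2090.8 and 2119.9 CPM in WT. The 3 groups did not overlap, with PSD1 overexpression lowest and WT highest. GCN4 fell by 0.46 ± 0.05 on the log2 scale in PSD1 overexpression against WT (adjusted p = 5.79e-05). It was higher in pdr3Δ cells than in PSD1 overexpression by 0.21 ± 0.05 (adjusted p = 0.0228), and lower in pdr3Δ cells than in WT, at -0.24 ± 0.05 (adjusted p = 0.00532). The call against PSD1 overexpression was lost when any 1 of the 4 libraries of these groups was left out, and with both tests on FPKM (adjusted p 0.0547 to 0.177).

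Per kilobase of transcript model, GCN4 had the highest level of the 41 genes in every group, at 2102.0 CPM per kb in pdr3Δ cells, 1813.9 in PSD1 overexpression and 2488.6 in WT. ILV5, the acetohydroxyacid reductoisomerase of branched-chain synthesis, came next in every group at 1123.5 ± 46.3 CPM per kb in pdr3Δ cells, 1064.3 ± 8.43 in PSD1 overexpression and 1436.6 ± 18.2 in WT (SD, n = 2). The gap between GCN4 and ILV5 exceeded the spread of the libraries in each group. LEU4, ILV3 and LEU1 followed in changing order; in WT their means of 555.8, 555.8 and 495.7 CPM per kb lay within the library spread of LEU1 (SD 91.9). The lowest level in every group was that of ARG82, an inositol polyphosphate kinase gene also needed for the ArgR complex, at 24.2 CPM per kb in pdr3Δ cells, 25.9 in PSD1 overexpression and 22.1 in WT.

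**Figure D2:**
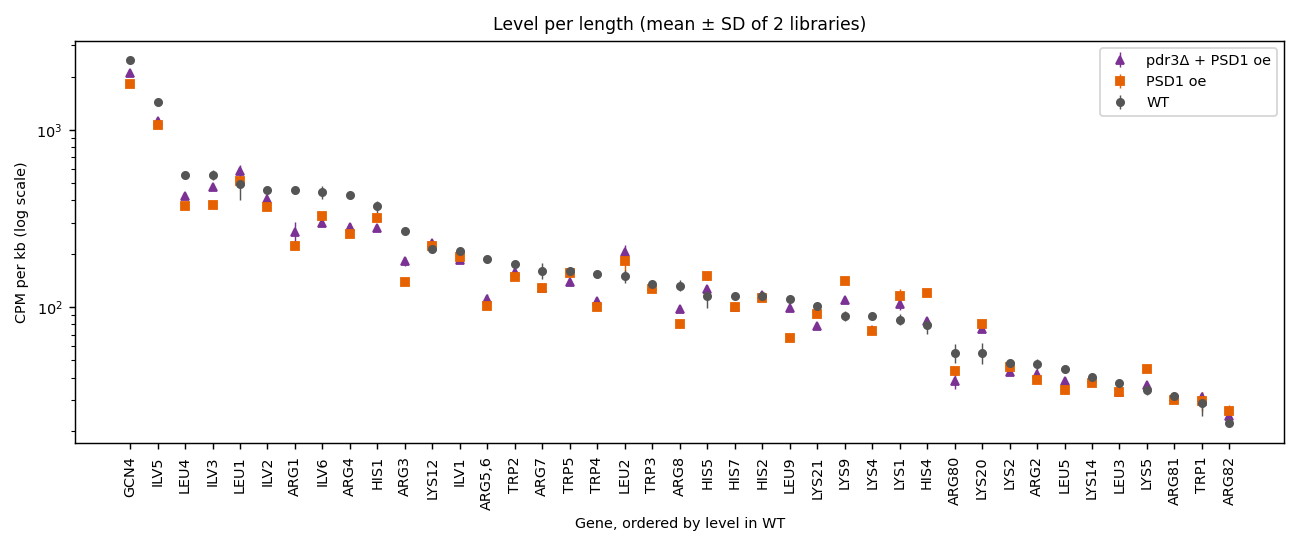
Mean CPM per kb with SD of 2 libraries (vertical axis, log scale) for the 41 genes (horizontal axis, ordered by their level in WT) in pdr3Δ cells with PSD1 overexpression (oe), PSD1 overexpression and WT. GCN4 is first in all 3 groups, and the arginine enzymes show the WT mean above both others.

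Arginine synthesis showed the most uniform pattern of the 6 pathways, with all 7 enzymes lower in PSD1 overexpression than in WT and a median log2 fold change of -0.73. Over all loci, 27.9% were called lower in that comparison. ARG2, ARG5,6, ARG7 and ARG8 encode the acetylglutamate synthase, the acetylglutamate kinase and reductase, the ornithine acetyltransferase and the acetylornithine aminotransferase, all in the mitochondrial matrix, and ARG3, ARG1 and ARG4 encode the cytosolic steps from ornithine to arginine. The summed level of the 7 was 1630.1 and 1503.3 CPM in pdr3Δ cells and 1399.0 and 1365.7 CPM in PSD1 overexpression, against 2358.0 and 2433.0 CPM in WT. The sum in PSD1 overexpression was 0.577 times that in WT, and the sum in pdr3Δ cells was 0.654 times that in WT. Both groups with PSD1 overexpression lay below both WT libraries for every one of the 7 enzymes.

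ARG3, the ornithine carbamoyltransferase, had 191.7 and 176.7 CPM in pdr3Δ cells and 141.9 and 138.5 CPM in PSD1 overexpression, against 278.4 and 271.7 CPM in WT. It fell by 0.97 ± 0.05 on the log2 scale in PSD1 overexpression against WT (adjusted p = 3.1e-07), the smallest p of the 41 genes. In pdr3Δ cells it was higher than in PSD1 overexpression by 0.39 ± 0.05 (adjusted p = 0.00147), a call kept under every alternative tried, and it stayed below WT at -0.58 ± 0.05 (adjusted p = 1.65e-05). The groups did not overlap. ARG1, the argininosuccinate synthase, had 366.8 and 303.2 CPM in pdr3Δ cells and 288.9 and 269.5 CPM in PSD1 overexpression, against 573.9 and 576.8 CPM in WT. Its log2 fold change in PSD1 overexpression against WT, -1.04 ± 0.08 (adjusted p = 2.44e-06), was the lowest of the 41 genes. The pdr3Δ libraries of ARG1 lay apart from each other, and its call against PSD1 overexpression (0.26 ± 0.08, adjusted p = 0.043) was lost without pdr3Δ replicate 1 or either PSD1 overexpression library (adjusted p 0.108 to 0.272 over these and both FPKM tests).

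ARG5,6 had 300.5 and 274.3 CPM in pdr3Δ cells and 261.2 and 265.0 CPM in PSD1 overexpression, against 468.6 and 496.8 CPM in WT. ARG4, the argininosuccinate lyase, had 407.7 and 380.3 CPM in pdr3Δ cells and 360.7 and 361.9 CPM in PSD1 overexpression, against 602.2 and 596.8 CPM in WT. Both were well below WT in all 4 libraries with PSD1 overexpression. ARG5,6 fell by 0.88 ± 0.06 in PSD1 overexpression against WT (adjusted p = 8.03e-07) and by 0.75 ± 0.06 in pdr3Δ cells against WT (adjusted p = 5.42e-06). For ARG4 these log2 changes were -0.73 ± 0.05 (adjusted p = 1.03e-06) and -0.61 ± 0.05 (adjusted p = 8.56e-06). Neither gene was called between pdr3Δ cells and PSD1 overexpression, at 0.13 ± 0.06 for ARG5,6 (adjusted p = 0.144) and 0.13 ± 0.05 for ARG4 (adjusted p = 0.102). ARG8 changed by -0.71 ± 0.06, ARG7 by -0.33 ± 0.07 and ARG2 by -0.30 ± 0.06 in PSD1 overexpression against WT. ARG8 was higher in pdr3Δ cells than in PSD1 overexpression by 0.27 ± 0.06 (adjusted p = 0.0139), lost without pdr3Δ replicate 2 or PSD1 overexpression replicate 2 (adjusted p 0.138 at most). ARG5,6 overlaps an opposite-strand gene by 323 bp. Since no source used here states whether counting used strand, reads of such pairs cannot be told apart.

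The arginine regulators differed among themselves. ARG80, the MADS-box subunit of the ArgR complex, had 21.8 and 19.1 CPM in pdr3Δ cells and 23.8 and 22.8 CPM in PSD1 overexpression, against 32.1 and 26.9 CPM in WT. It fell by 0.53 ± 0.11 in pdr3Δ cells against WT (adjusted p = 0.00434) and by 0.33 ± 0.11 in PSD1 overexpression against WT (adjusted p = 0.0276). The second of these calls was lost with DESeq2, without WT replicate 1 and without either PSD1 overexpression library (adjusted p 0.0711 to 0.18). ARG81, the zinc-cluster subunit that senses arginine, had 78.6 and 85.4 CPM in pdr3Δ cells and 77.6 and 81.6 CPM in PSD1 overexpression, against 81.9 and 84.6 CPM in WT. Its PSD1 overexpression libraries lay just below those of WT, the pdr3Δ libraries overlapped both other groups, and no comparison was called. ARG82 had 25.0 and 26.7 CPM in pdr3Δ cells and 26.1 and 29.1 CPM in PSD1 overexpression, against 24.0 and 23.3 CPM in WT, a log2 difference of 0.22 ± 0.09 between PSD1 overexpression and WT that was not called (adjusted p = 0.0691). ARG81 overlaps an opposite-strand gene by 161 bp.

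**Figure D3:**
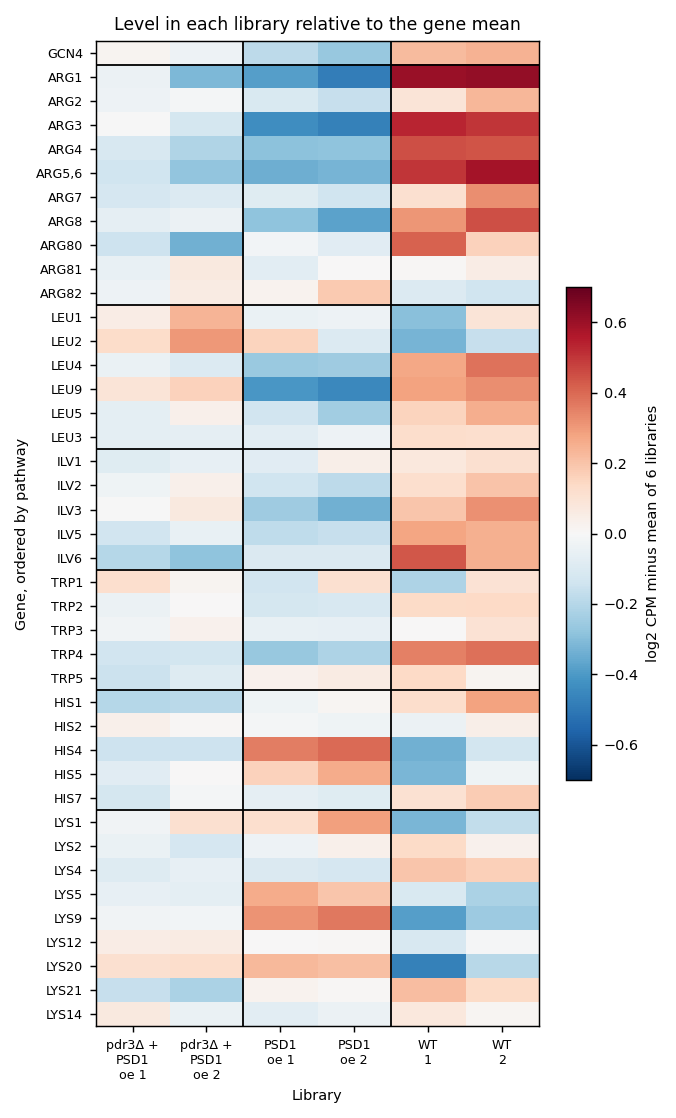
Log2 CPM minus the mean of the 6 libraries (colour) for the 41 genes (rows, by pathway) in each library (columns; oe, overexpression). The arginine enzymes are high in both WT libraries, and HIS4, LYS9 and LYS5 are high in both PSD1 overexpression libraries.

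The 5 isoleucine and valine enzymes act in mitochondria, and 4 of them fell in PSD1 overexpression against WT, with a median log2 fold change of -0.43 over the 5. These 4 were 80.0% of the 5, against 27.9% of all loci called lower. The summed level was 3536.4 and 3683.6 CPM in pdr3Δ cells and 3332.8 and 3308.2 CPM in PSD1 overexpression, against 4364.6 and 4431.4 CPM in WT, with no overlap between the groups. ILV3, the dihydroxyacid dehydratase, fell by 0.55 ± 0.06 (adjusted p = 2.91e-05), and ILV6, the regulatory subunit of acetolactate synthase, by 0.45 ± 0.06 (adjusted p = 0.000201). ILV5 fell by 0.43 ± 0.05 and ILV2, the catalytic subunit of acetolactate synthase, by 0.32 ± 0.05. ILV1, the threonine deaminase, was not called, at -0.11 ± 0.05 (adjusted p = 0.0996). In pdr3Δ cells ILV3 was higher than in PSD1 overexpression by 0.33 ± 0.06 (adjusted p = 0.00523), with 816.0 and 857.6 CPM in pdr3Δ cells and 687.6 and 646.0 CPM in PSD1 overexpression, against 933.8 and 1020.3 CPM in WT. That call was lost without PSD1 overexpression replicate 2 (adjusted p = 0.0805). ILV6 was lowest in pdr3Δ cells, with 283.7 and 267.9 CPM there and 304.5 and 303.9 CPM in PSD1 overexpression, against 440.7 and 387.9 CPM in WT, and its difference from PSD1 overexpression was not called (adjusted p = 0.15).

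Among the 4 leucine enzymes, the paralogs LEU4 and LEU9, which encode the mitochondrial alpha-isopropylmalate synthases of the first step, fell in PSD1 overexpression against WT, LEU2 rose and LEU1 was not called. LEU9 had 174.8 and 183.2 CPM in pdr3Δ cells and 123.8 and 119.8 CPM in PSD1 overexpression, against 199.1 and 205.3 CPM in WT. It fell by 0.73 ± 0.05 in PSD1 overexpression against WT (adjusted p = 1.17e-06). In pdr3Δ cells it was higher than in PSD1 overexpression by 0.56 ± 0.05 (adjusted p = 0.000152), the smallest p and the largest log2 fold change of the 41 genes in that comparison, and it was called under every alternative tried. It stayed slightly below WT in pdr3Δ cells, at -0.18 ± 0.05 (adjusted p = 0.0167), a call lost with DESeq2 and without pdr3Δ replicate 1 or WT replicate 2 (adjusted p 0.0553 to 0.113).

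LEU4 had 796.8 and 771.9 CPM in pdr3Δ cells and 689.5 and 693.8 CPM in PSD1 overexpression, against 996.4 and 1071.1 CPM in WT. It fell by 0.58 ± 0.05 in PSD1 overexpression against WT (adjusted p = 7.44e-06). Its rise in pdr3Δ cells over PSD1 overexpression, 0.18 ± 0.05 (adjusted p = 0.0346), was lost without any 1 of the 4 libraries (adjusted p 0.063 to 0.163, both FPKM tests included). The difference between the paralogs' log2 changes was not tested. Their coding sequences are 79.3% identical over 1809 aligned bases with a longest identical run of 41 bases, and each overlaps an opposite-strand gene, LEU4 by 36 bp and LEU9 by 210 bp. Each window holds 1 TGACTCA, printed with the core in capitals on R64.
LEU4, chrXIV:426838-426867, - strand: cttacgtgtaagTGACTCagttctttcaaa
LEU9, chrXV:522758-522787, + strand: ggtcgtagtgaaTGACTCatatttttccat

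LEU2 encodes the isopropylmalate dehydrogenase and LEU1 the isopropylmalate isomerase, both cytosolic. LEU2 had 211.2 and 238.3 CPM in pdr3Δ cells and 215.6 and 180.8 CPM in PSD1 overexpression, against 154.5 and 172.8 CPM in WT. WT was lowest, and the other groups overlapped. LEU2 rose by 0.46 ± 0.09 in pdr3Δ cells against WT (adjusted p = 0.0027) and by 0.28 ± 0.09 in PSD1 overexpression against WT (adjusted p = 0.0254). The second call was lost without PSD1 overexpression replicate 1, without WT replicate 1 and with both FPKM tests (adjusted p 0.0929 to 0.259). LEU1 had 1278.4 and 1453.8 CPM in pdr3Δ cells and 1196.6 and 1203.9 CPM in PSD1 overexpression, against 1008.0 and 1312.0 CPM in WT; the WT libraries lay far apart and no comparison was called. LEU1 and LEU2 were 2 of only 8 genes among 6020 (0.133%) whose window held the Leu3 element, CCGG and CCGG with 2 free bases between, in capitals here on R64.
LEU1, chrVII:478850-478879, - strand: aacgaaaattCCGGGACCGGcgaaatttgc
LEU2, chrIII:91116-91145, + strand: ggtgagagcgCCGGAACCGGcttttcatat

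LEU3, the zinc-cluster regulator that binds this element, had 87.6 and 87.9 CPM in pdr3Δ cells and 87.4 and 89.7 CPM in PSD1 overexpression, against 100.1 and 99.5 CPM in WT. It fell by 0.19 ± 0.05 in pdr3Δ cells against WT (adjusted p = 0.0148) and by 0.17 ± 0.05 in PSD1 overexpression against WT (adjusted p = 0.0149), and both calls were lost with DESeq2 and when 1 or more single libraries were left out (adjusted p 0.101 at most). LEU5, a carrier of the mitochondrial inner membrane linked to coenzyme A accumulation, fell by 0.39 ± 0.08 in PSD1 overexpression against WT (adjusted p = 0.00192). In pdr3Δ cells it fell by 0.22 ± 0.08 against WT (adjusted p = 0.0434), a call lost under 10 alternatives.

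**Figure D4:**
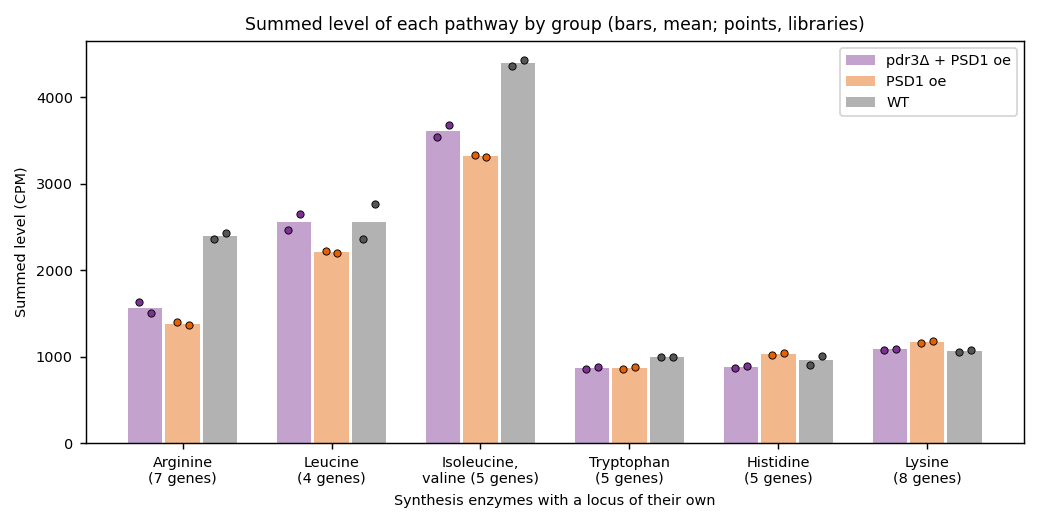
Summed CPM (vertical axis) of the synthesis enzymes with their own locus in each pathway (horizontal axis), with bars for the group mean and points for the 2 libraries; oe, overexpression. The arginine sums of 1365.7 to 1630.1 CPM in the groups with PSD1 overexpression lie below the WT sums of 2358.0 and 2433.0 CPM.

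Of the 5 tryptophan enzymes, 2 were lower and none higher in PSD1 overexpression against WT. They were 40.0% of the 5, against 27.9% of all loci called lower and 55.8% called in either direction. TRP4, the anthranilate phosphoribosyltransferase, had 124.0 and 124.3 CPM in pdr3Δ cells and 113.1 and 117.1 CPM in PSD1 overexpression, against 173.3 and 177.4 CPM in WT. It fell by 0.61 ± 0.05 in PSD1 overexpression against WT (adjusted p = 2.93e-06) and by 0.50 ± 0.05 in pdr3Δ cells against WT (adjusted p = 2.14e-05). TRP2, a subunit of anthranilate synthase, fell by 0.25 ± 0.04 (adjusted p = 0.000843) in PSD1 overexpression against WT. TRP3, which encodes the other subunit of that enzyme and indoleglycerol phosphate synthase, and TRP5, the tryptophan synthase, were not called there, at -0.11 ± 0.05 and -0.04 ± 0.05. TRP5 was lower in pdr3Δ cells than in WT (-0.20 ± 0.05, adjusted p = 0.0128), a call lost without pdr3Δ replicate 1 or WT replicate 1 (adjusted p 0.0783 and 0.083). TRP1, the phosphoribosylanthranilate isomerase, had 21.8 and 20.4 CPM in pdr3Δ cells and 18.3 and 21.7 CPM in PSD1 overexpression, against 17.3 and 21.6 CPM in WT. Its groups overlapped and no comparison was called. TRP1, TRP2 and TRP4 overlap opposite-strand genes by 265, 90 and 144 bp.

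Of the 5 histidine enzymes with their own locus, HIS4 and HIS5 rose, HIS1 and HIS7 fell and HIS2 was not called in PSD1 overexpression against WT. The shares were 40.0% each way, against 27.9% of all loci each way, and 80.0% in all, against 55.8%. HIS4, a trifunctional enzyme of several histidine steps, had 201.1 and 201.3 CPM in pdr3Δ cells and 285.2 and 293.3 CPM in PSD1 overexpression, against 176.0 and 203.6 CPM in WT. PSD1 overexpression lay above both other groups, which overlapped. HIS4 rose by 0.61 ± 0.06 in PSD1 overexpression against WT (adjusted p = 2.72e-05) and was lower in pdr3Δ cells than in PSD1 overexpression, at -0.52 ± 0.06 (adjusted p = 0.000902). Both calls were kept under every alternative tried. Its log2 difference between pdr3Δ cells and WT was 0.08 ± 0.07 (adjusted p = 0.348).

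HIS5, the histidinol phosphate aminotransferase, rose by 0.38 ± 0.08 in PSD1 overexpression against WT (adjusted p = 0.00364). Its difference between pdr3Δ cells and PSD1 overexpression was -0.25 ± 0.08 and was not called (adjusted p = 0.0625). HIS1, the first enzyme of the pathway, had 250.6 and 252.6 CPM in pdr3Δ cells and 281.7 and 290.0 CPM in PSD1 overexpression, against 312.9 and 348.8 CPM in WT. It was lowest in pdr3Δ cells and highest in WT, with no overlap, and fell by 0.40 ± 0.06 in pdr3Δ cells against WT (adjusted p = 0.000377). In PSD1 overexpression against WT it fell by 0.21 ± 0.06 (adjusted p = 0.00982), a call lost without PSD1 overexpression replicate 1 or WT replicate 2 (adjusted p 0.0762 and 0.0768). Its fall in pdr3Δ cells against PSD1 overexpression, -0.18 ± 0.06 (adjusted p = 0.0477), was lost under 8 alternatives, among them each of the 4 libraries left out. HIS7, the glutamine amidotransferase and cyclase, fell by 0.22 ± 0.05 in PSD1 overexpression against WT (adjusted p = 0.00621), lost without PSD1 overexpression replicate 2 (adjusted p = 0.0514). HIS2, the histidinol phosphatase, differed by -0.03 ± 0.05 there. The locus that holds HIS3 with DED1, an RNA helicase gene, had 360.4 and 371.1 CPM in pdr3Δ cells and 382.3 and 354.3 CPM in PSD1 overexpression, against 411.3 and 356.7 CPM in WT, with overlapping groups. Its counts cannot be assigned to HIS3. The locus of HIS6 had 80.0 to 88.6 CPM over the 6 libraries and was called in no comparison.

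**Figure D5:**
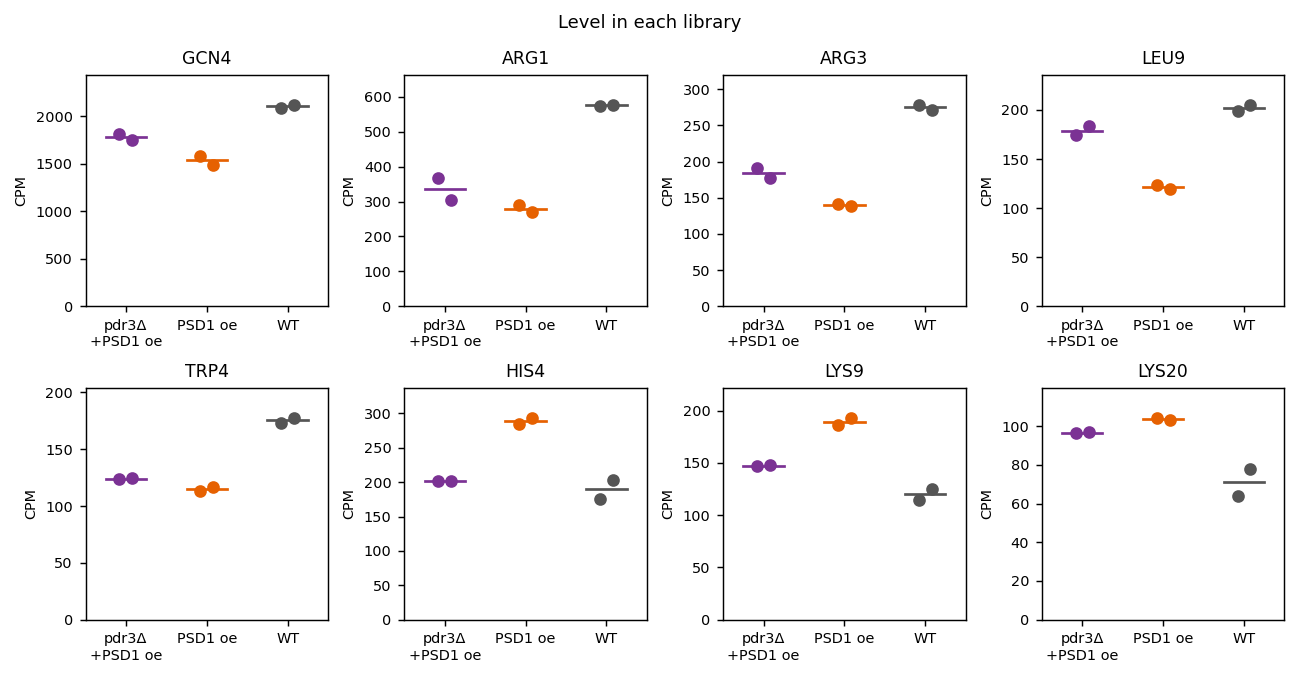
CPM in each library (points; vertical axis from 0) and group mean (line) for 8 genes in pdr3Δ cells with PSD1 overexpression (oe), PSD1 overexpression and WT. GCN4, ARG1, ARG3, LEU9 and TRP4 are lowest in PSD1 overexpression, and HIS4, LYS9 and LYS20 are highest there.

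Of the 8 lysine enzymes, 4 were higher, 2 lower and 2 not called in PSD1 overexpression against WT. LYS20 is among the 4 and LYS21 among the 2, and both values are uncertain, as set out below. The share called lower was 25.0%, near the 27.9% of all loci, and 4 of the 8 rose, against 27.9% of all loci. In all 75.0% were called, against 55.8% of all loci. The median log2 fold change over the 8 was 0.23. The summed level was 1084.1 and 1089.4 CPM in pdr3Δ cells and 1157.6 and 1184.8 CPM in PSD1 overexpression, against 1061.6 and 1084.2 CPM in WT. LYS9, the saccharopine reductase of the penultimate step, had 146.7 and 147.6 CPM in pdr3Δ cells and 185.9 and 192.8 CPM in PSD1 overexpression, against 114.5 and 125.2 CPM in WT. Its groups did not overlap. LYS9 rose by 0.66 ± 0.05 in PSD1 overexpression against WT (adjusted p = 4.55e-06), the highest log2 fold change of the 41 genes. It was lower in pdr3Δ cells than in PSD1 overexpression at -0.36 ± 0.05 (adjusted p = 0.00222), a call kept under every alternative tried, and higher in pdr3Δ cells than in WT by 0.30 ± 0.06 (adjusted p = 0.00194).

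LYS1, the saccharopine dehydrogenase of the last step, rose by 0.45 ± 0.08 in PSD1 overexpression against WT (adjusted p = 0.000677), and LYS5, the phosphopantetheinyl transferase that activates Lys2, by 0.39 ± 0.08 (adjusted p = 0.00266). LYS5 was lower in pdr3Δ cells than in PSD1 overexpression at -0.29 ± 0.08 (adjusted p = 0.0343), a call lost with DESeq2 and without any 1 of the 4 libraries (adjusted p 0.108 to 0.168). LYS4, the mitochondrial homoaconitase, fell by 0.29 ± 0.05 in PSD1 overexpression against WT (adjusted p = 0.000419). LYS12, the mitochondrial homoisocitrate dehydrogenase, and LYS2, the aminoadipate reductase, were not called there, at 0.07 ± 0.05 and -0.08 ± 0.05.

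LYS20 and LYS21 encode the homocitrate synthase isozymes of the first step. LYS20 had 96.3 and 96.9 CPM in pdr3Δ cells and 104.2 and 103.1 CPM in PSD1 overexpression, against 64.1 and 77.9 CPM in WT. LYS21 had 106.2 and 102.0 CPM in pdr3Δ cells and 121.1 and 119.7 CPM in PSD1 overexpression, against 138.3 and 130.3 CPM in WT. The isozymes were thus called in opposite directions in PSD1 overexpression against WT, LYS20 at 0.54 ± 0.08 (adjusted p = 0.000252) and LYS21 at -0.16 ± 0.05 (adjusted p = 0.0269). The LYS21 call was lost with DESeq2, both FPKM tests and 3 of the single libraries left out (adjusted p 0.052 to 0.139). In pdr3Δ cells against WT the log2 changes were 0.44 ± 0.08 for LYS20 (adjusted p = 0.00157) and -0.37 ± 0.05 for LYS21 (adjusted p = 0.000355). Their coding sequences are 91.4% identical over 1281 bases with an identical run of 278 bases, so the counting could have split or exchanged reads between them, and both values are uncertain for that reason.

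LYS14, the zinc-cluster activator of the lysine genes, had 97.1 and 89.7 CPM in pdr3Δ cells and 87.9 and 89.9 CPM in PSD1 overexpression, against 97.4 and 93.4 CPM in WT, and was called in no comparison. Its element TCCNNNGGA lay in the window of 212 of 6020 genes (3.52%) and of 6 of the 43, namely LYS1, LYS9, LYS12, LYS14, LYS21 and ARG2. LYS9 held it at 2 places and LYS20 did not hold it. The sites of LYS1, LYS9 and LYS21 are printed because these genes differed in direction, with the element in capitals on R64.
LYS1, chrIX:420914-420942, - strand: atttttttttTCCAGCGGAatttggaatt
LYS9, chrXIV:715595-715623, - strand: gaatcgaaatTCCGTTGGAaaaattcgct
LYS9, chrXIV:715533-715561, - strand: attgagaattTCCAATGGAattatcagca
LYS21, chrIV:227053-227081, + strand: gagttgaaatTCCGCTGGAaatcgtcacc

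Grouped by place of action, 11 of the 13 synthesis enzymes that work in mitochondria fell in PSD1 overexpression against WT and none rose. The 11 are 84.6% of the 13, against 27.9% of all loci called lower. The median log2 fold change over the 13 was -0.43. The exceptions were ILV1 and LYS12, which were not called. Of the 21 enzymes that act elsewhere, 8 fell and 7 rose (38.1% and 33.3%, against 27.9% of all loci each way). Their median was -0.04. At a call of at least 1.5-fold, 3 of the 13 and 4 of the 21 were lower (23.1% and 19.0%, against 6.77% of all loci). None of the 13 and 2 of the 21 were higher at that fold (9.52% of the 21, against 8.62% of all loci). The lowest log2 fold changes, -1.04 for ARG1 and -0.97 for ARG3, were those of enzymes that act elsewhere. The summed level of the mitochondrial enzymes was 5580.9 and 5696.2 CPM in pdr3Δ cells and 5153.4 and 5117.1 CPM in PSD1 overexpression, against 6879.0 and 7124.7 CPM in WT. That of the 21 others was also below WT. It was 4861.2 and 5004.2 CPM in pdr3Δ cells and 4842.9 and 4860.7 CPM in PSD1 overexpression, against 5172.8 and 5596.9 CPM in WT. Among the 13 are 4 arginine enzymes, the 5 isoleucine and valine enzymes and the leucine enzymes LEU4 and LEU9, so place and pathway overlap in this grouping.

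The comparison of pdr3Δ cells with PSD1 overexpression moved fewer of the genes than the comparison of PSD1 overexpression with WT. Of the 41, 7 were higher and 5 lower in pdr3Δ cells (17.1% and 12.2%), against 11.8% and 9.12% of all loci. In either direction 29.3% of the 41 and 20.9% of all loci were called. None of the 41 reached 1.5-fold, against 1.43% of all loci (0.259% higher and 1.17% lower). These counts rest on single libraries: without any 1 of the 4 libraries compared, 2 to 4 genes were higher and 2 lower (the count of 2 higher without PSD1 overexpression replicate 2), and without either WT library 9 were higher and 7 lower. The median log2 fold change was 0.05. The higher genes were GCN4, ARG1, ARG3, ARG8, ILV3, LEU4 and LEU9, and the lower ones were HIS1, HIS4, LYS5, LYS9 and LYS21. The pdr3Δ libraries lay wholly above those of PSD1 overexpression for 20 of the 41 genes and wholly below for 12, against 32.2% and 31.3% of all loci. PSD1 itself was lower in pdr3Δ cells (9219.6 against 15476.2 CPM), and URA3 was lower too. Their part in the changes was not tested, and in this design it cannot be told apart from that of the PDR3 deletion.

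Side by side, of the 23 genes that fell in PSD1 overexpression against WT, the pdr3Δ mean lay between the other 2 means for 18 and below both for 5. All 23 were also called lower in pdr3Δ cells against WT, but for 8 of them (ARG2, HIS7, ILV2, ILV3, LEU3, LEU5, LEU9 and TRP2) that call was lost under 2 or more alternatives. Of the 23, 7 were called higher and 2 lower in pdr3Δ cells against PSD1 overexpression. Of the 7 genes that rose in PSD1 overexpression, the pdr3Δ mean lay between for 6 and above both for LEU2. Of these 7, 4 were called higher in pdr3Δ cells against WT (LEU2, LYS1, LYS9 and LYS20), and 3 were called lower in pdr3Δ cells against PSD1 overexpression (HIS4, LYS5 and LYS9). These comparisons share libraries, so the counts are not independent of each other. The genes were picked by their levels in the same PSD1 overexpression and WT libraries. Such a choice by itself favours a pdr3Δ mean between the other 2. The matching shares over all loci are not given here, so the counts are not set against a background.

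In pdr3Δ cells against WT, 26 of the 41 genes were lower and 4 higher (63.4% and 9.76%), against 19.5% and 19.6% of all loci. In either direction 73.2% of the 41 and 39.1% of all loci were called. The median log2 fold change was -0.19 over the 41 genes and 0.01 over all loci. At 1.5-fold, 4 were lower and none higher, against 2.87% and 4.76% of all loci (7.63% in either direction). Among the 21 synthesis enzymes that act outside mitochondria, 10 were lower and 4 higher (47.6% and 19.0%). All 7 arginine and all 5 isoleucine-valine enzymes were lower, as were 12 of the 13 mitochondrial enzymes. Among these, the calls of ARG2, ILV1, ILV2, ILV3 and LEU9 were lost under 10, 6, 7, 4 and 3 alternatives, with adjusted p of 0.227 at most. The count of 26 dropped to 15 when pdr3Δ replicate 1 was left out, and the count of 4 was 8 without WT replicate 2.

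Other amino acid genes also fell in PSD1 overexpression against WT. Of 37 further synthesis genes, 25 fell and 2 rose (67.6% and 5.41%, against 27.9% of all loci each way), among them ARO4, an entry enzyme of aromatic synthesis (-0.93 ± 0.05, adjusted p = 4.34e-07), ASN1, an asparagine synthetase (-0.79 ± 0.05, adjusted p = 4.97e-07), and GDH1, the NADP-dependent glutamate dehydrogenase (-0.89 ± 0.05, adjusted p = 5e-07). Of the 37, 7 were higher and 1 lower in pdr3Δ cells against PSD1 overexpression. The shares were 18.9% and 2.7%, against 11.8% and 9.12% of all loci. In all 21.6% were called, near the 20.9% of all loci. The lower one was SHM2, the cytosolic serine hydroxymethyltransferase. SHM2 had 241.1 and 263.1 CPM in pdr3Δ cells and 365.7 and 395.5 CPM in PSD1 overexpression, against 214.4 and 231.5 CPM in WT, highest in PSD1 overexpression as HIS4 was. Against WT, 24 of the 37 were lower in pdr3Δ cells (64.9%, against 19.5% of all loci) and none higher, with ARO1, the pentafunctional aromatic enzyme, at -0.56 ± 0.05 (adjusted p = 1.34e-05).

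Of 19 amino acid permeases, 11 fell and 2 rose in PSD1 overexpression against WT (57.9% and 10.5%, against 27.9% of all loci each way), with BAP3, a branched-chain amino acid permease, at -0.52 ± 0.05 and GAP1, the general permease, at -0.42 ± 0.05 (adjusted p = 6.67e-06 and 3.89e-05). Of the 19, 7 were higher (36.8%, against 11.8% of all loci) and none lower in pdr3Δ cells against PSD1 overexpression, led by DIP5, a permease of dicarboxylic amino acids, at 0.52 ± 0.06 (adjusted p = 0.00062). DIP5 had 219.6 and 220.7 CPM in pdr3Δ cells and 153.3 and 153.1 CPM in PSD1 overexpression, against 208.5 and 236.0 CPM in WT. A list of 8 breakdown genes held 3 pyruvate decarboxylases, PDC1, PDC5 and PDC6, which serve mainly in fermentation, and 5 genes of arginine, proline and aromatic or branched-chain breakdown. In PSD1 overexpression against WT the 3 pyruvate decarboxylases rose, PDC1 by 0.90 ± 0.09 (adjusted p = 2.14e-05). Of the other 5, CAR2, PUT1 and PUT2 rose, and CAR1 and ARO10 fell. Over the 8, 75.0% rose and 25.0% fell, against 27.9% of all loci each way. PUT1, the proline oxidase, had 382.9 and 473.5 CPM in pdr3Δ cells and 447.3 and 522.4 CPM in PSD1 overexpression, against 150.2 and 173.6 CPM in WT, a rise of 1.58 ± 0.11 on the log2 scale in PSD1 overexpression (adjusted p = 1.33e-06). CAR1, the arginase, fell by 0.49 ± 0.09 (adjusted p = 0.00124), and in pdr3Δ cells it was higher than in PSD1 overexpression by 0.47 ± 0.09 (adjusted p = 0.00741). ARO10, an oxo acid decarboxylase of aromatic amino acid breakdown, fell by 0.90 ± 0.06 in PSD1 overexpression against WT (adjusted p = 8.12e-07).

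Of 14 genes of the general control kinase and initiation factors, 7 fell and 1 rose in PSD1 overexpression against WT. In all 57.1% of them were called, near the 55.8% of all loci, but the calls leaned lower. The share that rose was 7.14% and 7 of the 14 fell, against 27.9% of all loci each way. The median log2 fold change was -0.17 over the 14, against 0.01 over all loci. GCD11, the gamma subunit of eIF2, fell by 0.38 ± 0.05 (adjusted p = 8.9e-05), and PHO85, a cyclin-dependent kinase linked to Gcn4 turnover, rose by 0.48 ± 0.06 (adjusted p = 0.000116). PCL5, of the same list and named after its values were seen, was at 0.02 ± 0.05 there (adjusted p = 0.696). It was called in no comparison. Turnover of Gcn4 was not measured. GCN2, the kinase gene itself, named here after its values were seen, differed by -0.02 ± 0.05 between PSD1 overexpression and WT (adjusted p = 0.713). Between pdr3Δ cells and PSD1 overexpression, 1 of the 14 was higher in pdr3Δ cells and 1 lower (14.3% in all, against 20.9% of all loci). Of 13 regulators of amino acid sensing and nitrogen use, 4 rose and 3 fell in PSD1 overexpression against WT. This is 30.8% and 23.1%, near the background of 27.9% each way. DAL80, a GATA repressor of nitrogen genes, rose by 1.05 ± 0.13 (adjusted p = 9.76e-05).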

How the data were processed

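Per the submitters' processing notes, the tools were Cuffdiff 2.2.0, Cufflinks 2.2.0, TopHat2 2.0.9, SAMtools 0.1.18 and Bowtie2 2.1.0 on sacCer3 (R64); no source used here says which tool counted or with what strand setting. The authors deposited whole-number counts per locus and FPKM of the same loci, per the file headers. Gene names came from the deposited transcript models and RefSeq R64, whose start and end matched for 99.68% of 6007 shared genes. CPM was computed from the counts and each library's TMM-scaled total.

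Counts of all 6 libraries were tested in one fit with edgeR 4.0.16 in R 4.3.3 (TMM, filterByExpr by group, quasi-likelihood test, Benjamini-Hochberg over 6171 loci), which left 3 residual degrees of freedom and a biological coefficient of variation of 4.66%. Calls reach small changes, down to an absolute log2 of 0.118 in PSD1 overexpression against WT. The labels do not state that the libraries of a group are separate cultures; the spread behind each p-value may therefore be technical. The script was tested on simulated data. The genes and lists were chosen with earlier results of these data known. Every gene of the rule is given. Per-library values go to GCN4, the regulators, the paralogs, HIS3, LEU2, TRP1 and the 3 smallest p-values per comparison, and to further genes chosen after their values were seen. Other lists show up to 3 genes by p per comparison. Alternatives were DESeq2 1.42.0, other scalings and filters, a replicate block, limma-trend (limma 3.58.1) on log2(FPKM + 1) and log2(FPKM + 0.1), pairwise fits and each library left out.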

Additional observations from a re-analysis of the deposited data

How the results depend on the processing

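The counts of called genes among the 41 with their own locus moved by over 1.5 times only between pdr3Δ cells and PSD1 overexpression when all libraries were used: 4 higher, against 7, with log2(FPKM + 1) and with log2(FPKM + 0.1), and 3 lower, against 5, with both, and 2 lower with DESeq2; the cause was not tested. With 1 library left out, the counts ranged from 6 to 8 higher and 19 to 23 lower in PSD1 overexpression against WT, 2 to 9 higher and 2 to 7 lower in pdr3Δ cells against PSD1 overexpression, and 3 to 8 higher and 15 to 23 lower in pdr3Δ cells against WT. The lowest count of 2 higher came without PSD1 overexpression replicate 2. The labels do not say whether a replicate number marks a shared culture or day. Deviations of same-numbered libraries correlated at 0.041 for PSD1 overexpression and WT, -0.02 for pdr3Δ and PSD1 overexpression, and 0.194 for pdr3Δ and WT. These values do not settle whether the samples were paired. A fit with the replicate block called 7 genes higher and 23 lower in PSD1 overexpression against WT. It called 7 and 7 in pdr3Δ cells against PSD1 overexpression, and 5 and 26 in pdr3Δ cells against WT. Directions that turned belonged to uncalled differences. With library totals alone, LEU3 in pdr3Δ cells against PSD1 overexpression was at 0.002 and ARG81 in pdr3Δ cells against WT at 0.003. With 1 library left out, log2 changes ranged as follows. In PSD1 overexpression against WT they ran from -0.065 to 0.015 for HIS2, -0.128 to 0.251 for LEU1, -0.119 to 0.204 for TRP1 and -0.095 to 0.021 for TRP5. In pdr3Δ cells against PSD1 overexpression they ran from -0.018 to 0.102 for ARG81, -0.024 to 0.033 for ARG7, -0.046 to 0.062 for HIS7, -0.112 to 0.002 for ILV1, -0.031 to 0.002 for LEU3 and -0.038 to 0.203 for TRP1. In pdr3Δ cells against WT they ran from -0.082 to 0.038 for ARG81, -0.019 to 0.061 for HIS2, -0.017 to 0.193 for HIS4, -0.008 to 0.283 for HIS5, -0.089 to 0.025 for LYS14 and -0.035 to 0.287 for TRP1. The lowest count of any of the 41 genes in a library was 199. With 2 libraries per group, a left-out library leaves 1 in its group, which is assumed to vary like the others.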
